A study of Mus musculus and Homo sapiens with 20 samples.

Results

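The promoters described here are 1150 autosomal start sites of protein-coding genes that carried a called H3K27me3 peak in both Tet2 WT libraries of mouse embryonic stem (mES) cells and in neither Tet2 KO library. A promoter was taken as the annotated gene start with 1 kb on each side, a window of 2001 bp, and 1 bp of a peak was enough to touch it. Chromosome 6 from 81 Mb and chromosome 13 from 89 Mb were left out, which with the sex chromosomes and the mitochondrial genome removed 1970 of 21951 annotated protein-coding starts and left 19981 promoters. The 1150 promoters were chosen by their H3K27me3 calls, so those calls are given as a description without a test, and the other mark and the other cell type are where comparisons were made. Among all 19981 promoters the loss rule called 5.76%, and the reverse rule, a peak in both KO and neither WT list, called 93 promoters or 0.465%.

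H3K27me3 is placed by EZH1 or EZH2 in Polycomb repressive complex PRC2, and H2AK119ub, ubiquitin on lysine of histone H2A, is placed by RING1A or RING1B in PRC1. The complexes bind each other's products, and in embryonic stem cells they sit together over CpG islands of silent developmental regulators, often in domains of many kilobases. TET2 oxidizes 5-methylcytosine in DNA and RNA. The study asked how oxidation of RNA 5-methylcytosine by TET2 affects chromatin, and both marks were profiled here in WT and Tet2 KO cells.

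The mES cells were WT and Tet2-/- lines obtained from another laboratory and grown in serum with LIF, CHIR99021 and PD0325901, so each genotype is represented by a line and not by several clones. The haematopoietic stem and progenitor cells (HSPCs) were Lin- c-Kit+ bone marrow cells from WT C57BL/6 mice and from Tet2-/- mice backcrossed to that strain, aged 6 to 8 weeks and of both sexes, taken by magnetic lineage depletion and c-Kit selection; the labels also describe a cytokine culture of these cells and do not say whether it came before the assay. CUT&Tag, in which an antibody tethers a transposase that cuts and tags nearby DNA, was done for H3K27me3 and H2AK119ub with 2 libraries per genotype, cell type and mark, 16 mouse libraries in 8 groups. The methods speak of biological replicates for CUT&Tag, but the labels do not tie these libraries to separate cultures or animals, so the p-values measure only the spread between these libraries, part of which may be technical. Each library is a list of peak positions without heights or read counts, and the read depth behind it is unknown.

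The mES H3K27me3 lists held 109604 and 120483 peaks in WT and 125347 and 102382 in KO cells. These counts overlapped between genotypes, and the covered autosomal length was 186.6 and 229.6 Mb in WT against 212.2 and 147.8 Mb in KO. The share of promoters touched did not overlap. Over all tested promoters, members included, it was 48.3% and 50.8% in WT and 42.1% and 37.6% in KO. Between 33.5% and 41.4% of the peaks of each library were exactly 501 bp wide. All HSPC comparisons below use autosomal promoters because the HSPC lists of both marks differed outside the autosomes. The H3K27me3 lists held 17920 and 17478 peaks there in KO against 654 and 679 in WT. The H2AK119ub lists held 2873 and 3106 in KO against 689 and 453 in WT. The sex of the animals behind each library is not given in the labels, and its part in any HSPC difference was not tested. As a check of the cell labels, H3K27me3 peaks were in none of the 4 mES lists at Nanog, Dppa5a, Tdgf1 and Pou5f1, 4 of 8 mES markers, and in all 4 at Esrrb. Among 10 HSPC markers, Ptprc, Myb and Mpo had no HSPC H3K27me3 peak, but 6 others, Kit and Cd34 among them, had one in all 4 HSPC lists. Nanog, Tdgf1 and Pou5f1 had one in all 4 HSPC lists, and Myb and Mpo in all 4 mES lists. Dppa5a had none in any HSPC list and Ptprc none in any mES list, so these genes did not separate the cell types. H2AK119ub was in all 4 mES lists at 7 of the 8 mES markers and in all 4 HSPC lists at 9 of the 10 HSPC markers.

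The promoters best supported by the WT data are shown first, as their upstream sequence is the DNA that was inside a WT peak and outside every KO peak. Support is the number of window bases inside a peak in the lower of the 2 WT lists. Each sequence below is 250 bases before the start, read 5′ to 3′ on the gene's strand from GRCm38, with every CpG in capitals. All 250 bases of each were inside a peak in both WT lists. In 3 of the 1150 promoters the whole window was covered in both WT lists. They were Acsf2 (an acyl-CoA synthetase family member; chr11:94601872-94602121, minus strand), Phlda3 (a p53 target that restrains Akt; chr1:135765869-135766118, plus strand) and Sorl1 (an endosomal sorting receptor; chr9:42124298-42124547, minus strand). These 3 upstream stretches held 16, 23 and 26 CpGs, respectively.
Acsf2: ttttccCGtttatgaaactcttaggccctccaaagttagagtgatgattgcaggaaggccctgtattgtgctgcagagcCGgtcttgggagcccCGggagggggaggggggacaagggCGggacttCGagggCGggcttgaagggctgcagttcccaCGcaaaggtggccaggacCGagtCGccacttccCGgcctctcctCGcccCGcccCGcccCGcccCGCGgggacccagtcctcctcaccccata
Phlda3: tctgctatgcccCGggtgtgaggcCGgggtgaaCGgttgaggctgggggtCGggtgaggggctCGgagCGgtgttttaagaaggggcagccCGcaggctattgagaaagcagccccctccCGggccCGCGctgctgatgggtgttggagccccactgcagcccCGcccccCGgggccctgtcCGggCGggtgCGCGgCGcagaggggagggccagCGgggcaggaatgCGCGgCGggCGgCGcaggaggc
Sorl1: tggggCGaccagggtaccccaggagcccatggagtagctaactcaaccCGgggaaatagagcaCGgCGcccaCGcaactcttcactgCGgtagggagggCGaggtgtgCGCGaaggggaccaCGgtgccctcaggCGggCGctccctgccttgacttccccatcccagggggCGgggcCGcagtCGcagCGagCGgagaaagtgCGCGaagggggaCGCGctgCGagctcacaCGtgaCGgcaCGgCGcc

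The next 2 are of well supported members with a WT peak that did not fill the window in both lists. The most upstream annotated start of Gnas, the imprinted locus of the stimulatory G protein alpha subunit (chr2:174284070-174284319, plus strand), had 14 CpGs. H6pd (hexose-6-phosphate dehydrogenase of the endoplasmic reticulum; chr4:150009024-150009273, minus strand) had 17.
Gnas: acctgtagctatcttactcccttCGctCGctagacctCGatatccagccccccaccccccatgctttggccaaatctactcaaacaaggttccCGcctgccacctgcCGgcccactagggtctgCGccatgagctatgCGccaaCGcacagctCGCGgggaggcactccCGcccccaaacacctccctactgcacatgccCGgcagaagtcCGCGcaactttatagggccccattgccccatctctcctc
H6pd: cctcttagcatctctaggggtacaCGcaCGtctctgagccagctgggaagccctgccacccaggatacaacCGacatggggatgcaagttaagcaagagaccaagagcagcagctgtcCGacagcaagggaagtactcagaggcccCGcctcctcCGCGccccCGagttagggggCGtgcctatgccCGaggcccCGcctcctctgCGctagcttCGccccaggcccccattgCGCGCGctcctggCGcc

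H3K27me3 at the 1150 promoters was narrow in WT mES cells. Median support was 501 bp, with both quartiles at 501 bp as well, whereas the 6894 promoters that carried a peak in all 4 mES lists had a median support of 1967 bp. These 6894 are called kept promoters below. Members with support of at most 501 bp numbered 888 (77.2%), and 563 members had exactly 1 peak of 501 bp, the width most common in every list, in each WT list. Of the 9100 promoters marked in both WT lists, 12.6% were members and 75.8% were kept. The share of members was 52.8% among the 1465 WT-marked promoters with support of exactly 501 bp, 17.1% among the 800 with 502 to 750 bp, 3.40% among the 1499 with 1001 to 1500 bp and 0.0874% among the 3433 fully covered ones. The plot of lost and kept promoters by WT coverage gives every class.

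**Figure D1:**
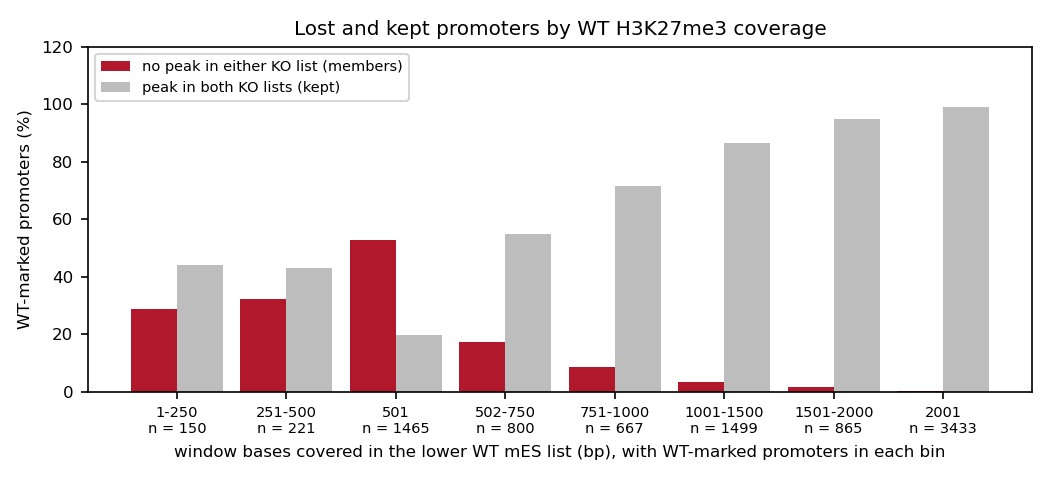
Percent of WT-marked promoters (y axis) with no peak in either KO list (members, red) or with a peak in both KO lists (kept, grey), by the window bases covered in the lower WT mES H3K27me3 list (x axis, bp). Members made up 52.8% of promoters covered by exactly 501 bp and 0.0874% of those covered throughout; promoters with a peak in only 1 KO list make up the rest.

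Narrow peaks also recurred less fully between replicates of the same genotype. Of 1951 promoters covered by at most 501 bp in WT replicate 2, 61.7% were touched in WT replicate 1, 30.1% in KO replicate 1 and 21.1% in KO replicate 2. For the 2107 such promoters of WT replicate 1 the values were 76.5% in the other WT list, 36.1% in KO replicate 1 and 25.9% in KO replicate 2. Promoters covered by more than 501 bp were found again in the other WT list in 96.4% and 99.2% of cases, and in the KO lists in 84.2% to 93.6%. In the opposite direction, of 1407 promoters covered by at most 501 bp in KO replicate 1, 76.0% and 81.4% were touched in the WT lists and 44.4% in KO replicate 2. A narrow call of that KO list was therefore missing from its own replicate more often than from either WT list. For 1354 such promoters of KO replicate 2, 78.3% were touched in KO replicate 1 and 82.7% and 89.1% in the WT lists. The KO lists thus shared fewer narrow calls with each other than each shared with WT, and the part of this in the 1150 calls was not tested.

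The edges of the rule were as follows. The members of lowest support were Zkscan17, with 1 bp of its window covered in WT replicate 1 and 501 bp in replicate 2, 4930558K02Rik with 2 and 501 bp, 4930503B20Rik with 3 and 163 bp, Mnt with 5 and 117 bp, and Ccl7 with 9 and 113 bp. Just outside the rule, Eva1c was covered by 129 and 1386 bp in WT and by 3 bp in KO replicate 1, and Sox13 by 486 and 2001 bp in WT and by 7 bp in KO replicate 2. Cpvl, Notum, Aldh18a1, Haao and 1700012B07Rik had the nearest KO peaks, 7, 12, 14, 16 and 20 bp beyond their windows. For all members the nearest KO peak was a median of 13363 bp from the window, and 652 (56.7%) had none within 10 kb. At 68 promoters (5.91%) the WT peak reached out of the window and overlapped a KO peak there. The 1150 promoters are not all independent: 248 of them shared a WT peak with another member, and counting each WT peak group once left 1024.

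The pattern of peaks around the starts was sharp in every list that marked these promoters. In WT mES cells H3K27me3 covered 75.3% and 77.7% of member bases 50 bp upstream of the start, against 6.73% and 9.24% at the outermost positions, 5 kb away. In KO cells the same measure was highest at the outer edge, at 7.19% and 3.89%, as the rule requires. H2AK119ub in the same cells peaked at 80.3% and 83.3% in WT and at 81.3% and 79.7% in KO, and H3K27me3 in HSPCs at 74.8% and 76.3% in WT and at 77.4% and 74.8% in KO. The broadest profile in the plot of peak coverage was that of H2AK119ub in HSPCs, with maxima of 84.3% and 80.3% in WT and 88.9% and 87.8% in KO.

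**Figure D2:**
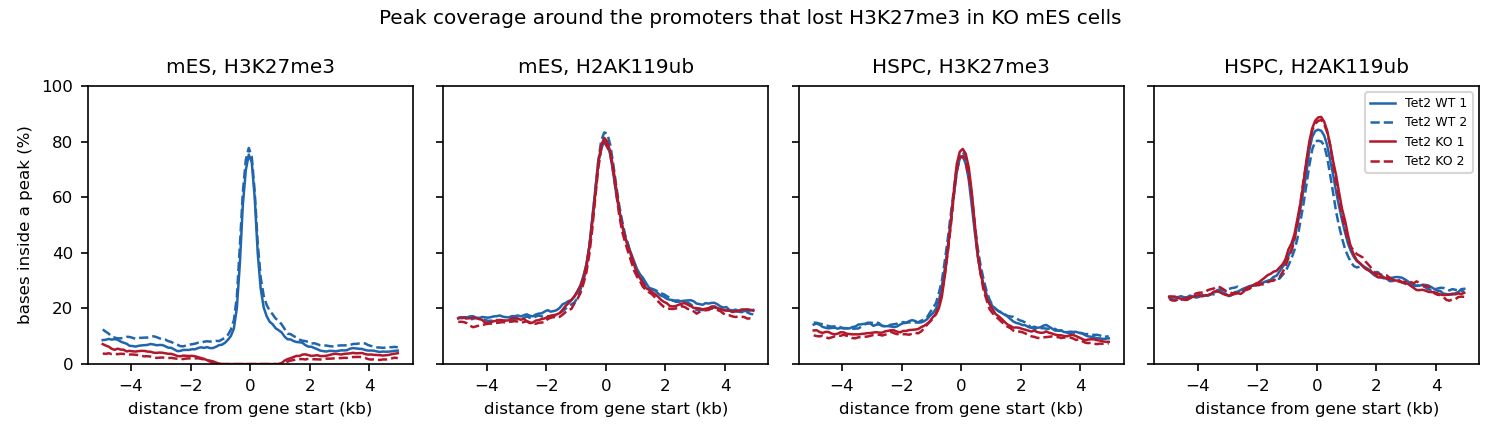
Percent of bases inside a called peak (y axis) against distance from the gene start (x axis, kb, positive along the gene) over the 1150 promoters, in 100-bp bins, with a line for each library (blue WT, red KO; replicate 2 dashed). H3K27me3 in KO mES cells is empty within 1 kb by construction, while the other 3 panels peak near the start in all libraries, between 74.8% and 88.9%.

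By gene list, the share of members was highest among genes of general cell functions and lowest among developmental and cell-surface families. Lists of 33 gene families and functions were counted, and for each the share of WT-marked promoters that lost all KO calls is set beside the 12.6% over all promoters. No list was tested, because the promoters and the lists were chosen with results of these data known. Genes of DNA repair and replication had the highest share among lists with at least 10 WT-marked promoters, 14 of 27. They included the helicase genes Blm and Wrn, the Fanconi anaemia genes Fanca, Fancc, Fance and Fancf, Mcm5 of the replicative helicase, and the polymerase delta subunits Pold2 and Pold3. Proteasome subunits followed with 6 of 12 (Psma4, Psma5, Psma7, Psmb2, Psmc4 and Psmc6), respiratory chain subunits and assembly factors with 11 of 23, cytosolic ribosomal proteins with 4 of 10 (Rpl7, Rpl26, Rpl31 and Rpl37) and mitochondrial ribosomal proteins with 6 of 19. Zfp zinc finger genes gave 27 of 115. Median support over WT-marked promoters was 501 bp in the DNA repair, proteasome, respiratory chain and both ribosomal lists. Among all WT-marked promoters with support of exactly 501 bp, 52.8% were members. Eif4a1, a translation initiation helicase and the only WT-marked promoter among 15 widely expressed genes, was a member.

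Developmental families were kept almost entirely. Of 197 WT-marked promoters of homeobox and other developmental transcription factor families, 190 were kept and 3 were members: Pou2f1, which encodes the widely expressed OCT1, Tbx3 and Ascl4. None of 81 cadherin and protocadherin promoters, 40 of collagens and laminins or 16 canonical Polycomb targets was a member, and all of these were kept. Ion channels had 3 members among 187, non-olfactory G-protein-coupled receptors 3 of 136, and Wnt, FGF, BMP and TGF-beta ligands 2 of 62. The latter were Lefty2, a Nodal antagonist, and Fgf4, both known to be expressed in mES cells. The lists of low share also had wide marks, with a median support over WT-marked promoters of 2001 bp for the developmental factors. It was 812 bp for the Zfp genes and 501 bp for the DNA repair genes. The list and the width of the mark therefore cannot be told apart here.

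**Figure D3:**
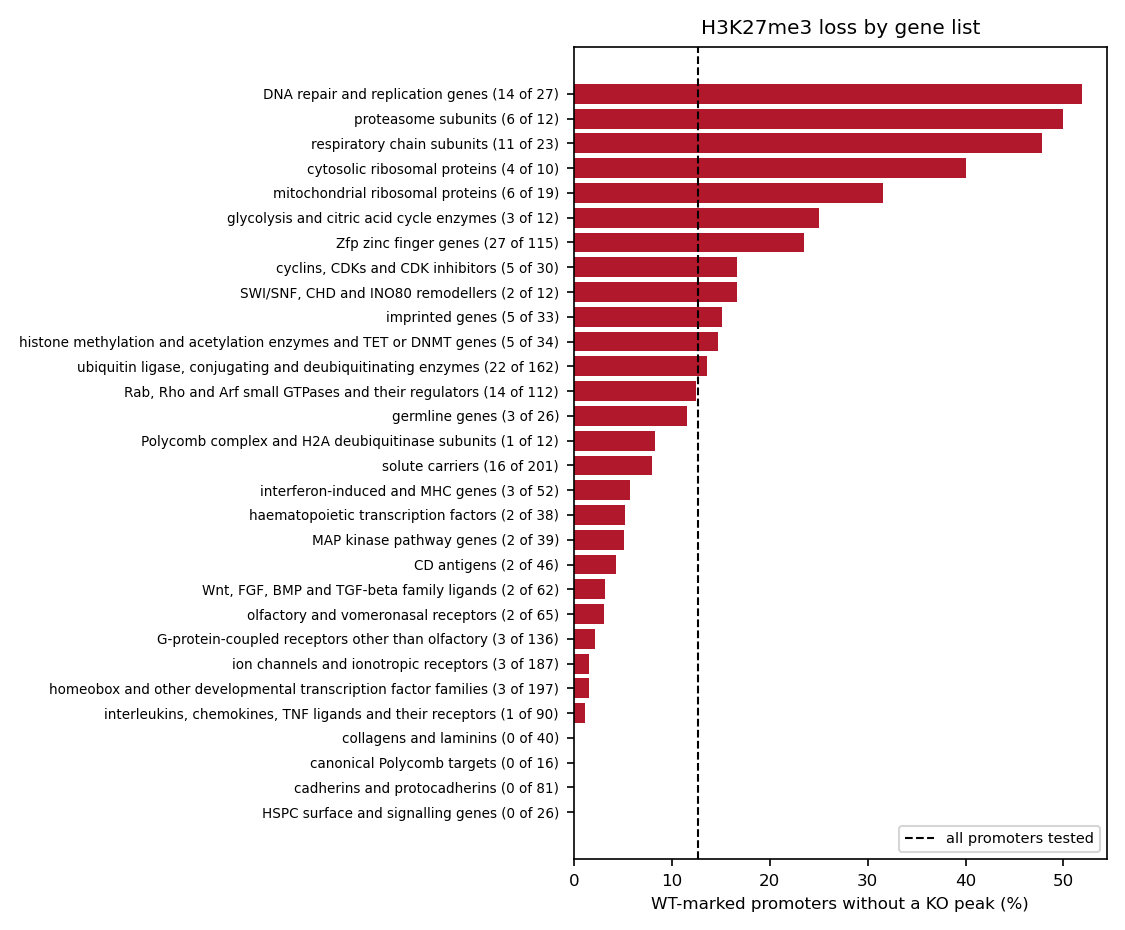
Percent of WT-marked promoters with no peak in either KO list (x axis) for each gene list with at least 10 WT-marked promoters (y axis; members of WT-marked promoters in brackets), with the value over all promoters, 12.6%, as a dashed line. DNA repair, proteasome, respiratory chain and ribosomal protein genes stand to the right of the line and developmental factors, channels, collagens and cadherins to the left.

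Some members belong to the chromatin machinery or to blood, at shares of WT-marked promoters near or below the 12.6% over all. The share was 8.33% for Polycomb and H2A deubiquitinase subunits and 14.7% for the list of histone and DNA modification genes. For haematopoietic transcription factors it was 5.26%. Ezh2, the catalytic subunit of PRC2, was the single member among 12 WT-marked promoters of Polycomb and H2A deubiquitinase subunits. Its H3K27me3 peak covered 501 bp in each WT list and 0 bp in both KO lists, and no KO peak lay within 54117 bp. In HSPCs the Ezh2 window was covered by H3K27me3 peaks over 632 and 628 bp in WT and 501 and 0 bp in KO, and by H2AK119ub over 1224 and 999 bp in WT and 1363 and 1465 bp in KO. The H3K27me3 coverage was thus lower in both KO libraries than in either WT library. How often libraries of a single gene separate in this way over all promoters was not counted, and the order at Ezh2 was not tested. Of 34 WT-marked promoters in the list compiled for histone methylation, acetylation or DNA modification, 5 were members. They were Kat6a and Kat7 (acetyltransferases), Kmt2b (an H3K4 methyltransferase), and Setd3 and Prdm4, counted as the list holds them. Setd3 and Ccnk share a start region, and in mES cells their H3K27me3 calls are the same peaks.

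Among 38 WT-marked haematopoietic transcription factors, 36 were kept and Lmo2 and Klf1 were members. Lmo2, which bridges the TAL1 transcription factor complex, was covered by 467 and 429 bp in WT mES cells, and a KO peak began 474 bp from its window. It had no H3K27me3 in any HSPC list and H2AK119ub in KO replicate 1 alone, over 308 bp. Klf1, the erythroid regulator, was covered by 367 and 1970 bp in WT mES cells, and its H2AK119ub filled the whole window of 2001 bp in all 8 H2AK119ub lists of both cell types. Its H3K27me3 in HSPCs covered 129 and 640 bp in WT and 892 and 1089 bp in KO. None of 26 WT-marked promoters of HSPC surface and signalling genes was a member.

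Imprinted genes gave 5 of 33, or 15.2%, near the 12.6% over all WT-marked promoters: Gnas, Zdbf2, Herc3, H13 and Trappc9. Gnas and Zdbf2 were among the best supported of all members, with 2001 and 1961 bp and 1939 and 2001 bp in the WT lists. In HSPCs both had H3K27me3 over the whole window in all 4 lists. Their H2AK119ub in mES cells differed: at Gnas it covered 2001 and 2001 bp in WT and 1947 and 2001 bp in KO, whereas at Zdbf2 it covered 672 and 0 bp in WT and 501 and 0 bp in KO. For Gnas a KO H3K27me3 peak lay 239 bp outside the window.

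The 10 members of highest support had unlike fates in the other lists. H2AK119ub filled the Acsf2 and Phlda3 windows in all 4 mES lists, 2001 bp in each. At Phlda3 the H3K27me3 of HSPCs was also complete in all 4 lists, while at Acsf2 it covered 715 and 0 bp in WT and 916 and 630 bp in KO. Sorl1 kept H2AK119ub in mES cells over 1325 and 2001 bp in WT and 1765 and 1824 bp in KO. Lrrc18, a leucine-rich repeat gene, had narrow H2AK119ub in mES cells, 501 and 1002 bp in WT and 725 and 501 bp in KO, and in HSPCs no mark except 501 bp of H3K27me3 in KO replicate 2. Saxo1, which encodes a protein of ciliary microtubules, had 1306 and 2001 bp of H2AK119ub in WT mES cells and 501 bp in each KO library, and in HSPCs 1171 and 1186 bp of H3K27me3 in WT against 2001 bp in both KO libraries. H2AK119ub at Saxo1 in HSPCs covered 1131 and 0 bp in WT and 326 and 1102 bp in KO. Prex2, an exchange factor for Rac, kept only 501 bp of H2AK119ub in WT replicate 1 of mES cells and had H3K27me3 in HSPCs over 1343 and 1565 bp in WT and 1683 and 1728 bp in KO.

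Gm7102, a predicted gene on chromosome 19 (start at 61176309), was the only one of these 10 to meet the loss rule in 3 of the 4 comparisons. Its H3K27me3 in mES cells covered 1699 and 1866 bp in WT, its H2AK119ub in mES cells 1383 and 1035 bp in WT, and its H3K27me3 in HSPCs 914 and 1029 bp in WT, with 0 bp in all 6 matching KO libraries. No HSPC list had H2AK119ub there in either genotype.

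**Figure D4:**
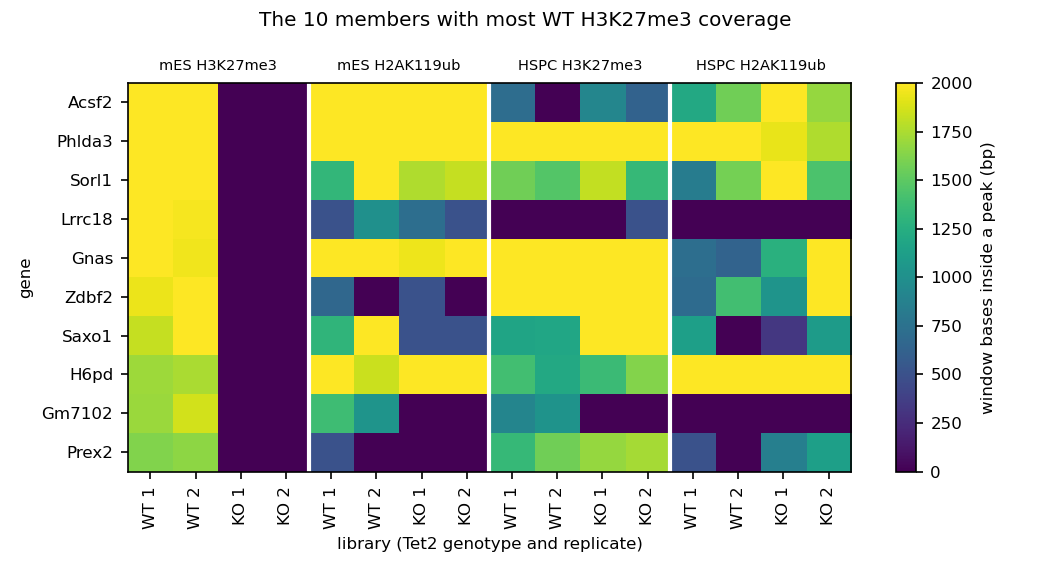
Window bases inside a peak (colour, 0 to 2001 bp) at the 10 members with most WT H3K27me3 coverage (y axis) in the 16 libraries (x axis, WT and KO replicates by cell type and mark). The mES H3K27me3 block is at 0 in KO by the rule; Phlda3 and H6pd stay largely covered in the other blocks, and Gm7102 is at 0 in every KO library.

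In mES cells H2AK119ub was still called at most of these promoters in KO cells. Peaks touched 93.0% and 94.3% of the 1150 promoters in WT and 94.3% and 92.3% in KO libraries, and the groups overlapped. The KO minus WT difference was -0.43 percentage points (exact two-sided permutation of the 4 libraries, 6 assignments, p = 0.667, Benjamini-Hochberg adjusted p = 0.778 over 7 tests). With 2 libraries per group the smallest p this test can give is 0.333, so none of the comparisons of this kind could pass 0.05. Without KO replicate 2 or without WT replicate 2 the members' difference turned positive, to 0.57 and 0.22 points. With peaks of at least 1 kb only, which left 430 members, it was -3.26 points. The mean covered length per member was 1066 and 1079 bp in WT and 1067 and 1028 bp in KO. H2AK119ub was in all 4 mES lists at 997 members (86.7%), against 93.1% of kept promoters and 61.8% of all, and in none at 22. Kept promoters were touched in 96.1% and 96.1% of cases in WT and in 97.1% and 96.6% in KO libraries. Members lay below them, at -2.40 ± 0.98 points (SD, n = 2) in WT and -3.59 ± 1.07 points (SD, n = 2) in KO, and this gap changed by -1.19 points from WT to KO with overlapping groups (exact permutation p = 0.667, adjusted p = 0.778). With peaks of at least 1 kb only, the change was -4.36 points.

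Few members lost or gained H2AK119ub in mES cells by the rule that defined them. Loss was called at 7 members (0.609%), against 0.801% of all promoters and 0.189% of kept ones. Gain was called at 6 (0.522%), against 0.991% of all promoters and 0.508% of kept ones. Counts this small were not read further. The best supported losses besides Gm7102 were Ehf, an epithelial ETS factor, at 1139 and 1565 bp in WT and 0 in KO, Gigyf2 and Hacd2, each at 501 bp in both WT lists, and Tsen15, a tRNA splicing subunit, at 851 and 501 bp. Among the gains, Ccnt2, a cyclin of the elongation factor P-TEFb, had 0 bp in both WT lists and 501 and 630 bp in KO. Serpinb6b had 1383 and 501 bp in KO.

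Most of these promoters carried both marks in HSPCs of both genotypes. H3K27me3 peaks touched 83.8% and 84.7% of members in WT and 84.7% and 84.3% in KO HSPCs, a difference of 0.26 points (exact permutation p = 1, adjusted p = 1) with overlapping groups. H3K27me3 was in all 4 HSPC lists at 869 members (75.6%), close to the 77.7% of kept promoters and above the 51.5% of all promoters and the 26.4% of promoters without any mES peak. Relative to kept promoters the KO minus WT difference was 0.79 points, with group means of -1.28 ± 0.39 (SD, n = 2) in WT and -0.49 ± 0.26 (SD, n = 2) in KO that did not overlap (exact permutation p = 0.333, the smallest possible, adjusted p = 0.583). Among members alone the value was -0.17 points without WT replicate 1. It was -2.63 with lists cut to equal length, peaks outside the autosomes counted. The covered length was a mean of 888 and 931 bp per member in WT and 896 and 874 bp in KO HSPCs, against 1323 and 1344 bp and 1325 and 1299 bp at kept promoters. Members called lost in HSPCs numbered 17 (1.48%, background 1.31%) and gained 12 (1.04%, background 1.21%), both near the background.

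The HSPC losses of highest support, besides Gm7102, were Gm973 (636 and 639 bp in WT, 0 in KO), Car13, a carbonic anhydrase (501 bp in each WT list), Nkg7, a cytotoxic granule gene (501 and 388 bp), and Etfb, the electron transfer flavoprotein beta subunit (774 and 1132 bp). Nkg7 and Etfb are neighbours on chromosome 7. The gains were led by Mob3b, with 0 bp in WT and 730 and 687 bp in KO, and by Prss32 and Prss41, serine protease genes whose starts share their peaks, with 501 and 630 bp in KO.

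H2AK119ub in HSPCs touched 93.0% and 89.5% of members in WT and 93.8% and 93.3% in KO libraries. Each KO value lay above each WT value, by 2.35 points in the mean, which is less than the 3.48 points between the 2 WT libraries (exact permutation p = 0.333, adjusted p = 0.583). WT replicate 2 had the fewest peaks of these lists, 112734 against 129892 to 136735, and its part in the difference was not tested. Without it the difference was 0.61 points, and with peaks of at least 1 kb only it was 9.77. The same libraries also separated at other promoters. Kept promoters were touched in 84.9% and 77.6% of cases in WT and 87.4% and 87.8% in KO, so that the members' excess over them was 8.07 and 11.9 points in WT and 6.43 and 5.47 points in KO, a KO minus WT change of -4.01 points (exact permutation p = 0.333, adjusted p = 0.583). That change was -2.12 points without WT replicate 2 and -1.91 with peaks of at least 1 kb only. The KO minus WT difference in H2AK119ub was 2.78 points larger in HSPCs than in mES cells (exact permutation over 36 arrangements, p = 0.222, adjusted p = 0.583, smallest possible p = 0.0556). This value depended on single libraries: it was 1.04 without HSPC WT replicate 2, 1.78 without mES KO replicate 2 and 4.52 without HSPC WT replicate 1. With peaks of at least 1 kb it was 13.02, and over any transcript start 1.83.

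By the call rule, 5 members lost H2AK119ub in HSPCs (0.435%, background 0.32%) and 11 gained it (0.957%, background 1.66%). The losses were Stmnd1, Hormad2, Zan, which encodes a sperm protein that binds the egg coat, Ifi27, an interferon-induced gene, and Cpvl. Hormad2, a meiotic chromosome axis gene, had 639 and 707 bp in WT and 0 in KO and no H3K27me3 in any HSPC list. Among the gains, Gm5678 had 0 bp in WT and 1105 and 630 bp in KO, and Klk1, tissue kallikrein, 1135 and 629 bp in KO with H3K27me3 in all 4 HSPC lists.

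**Figure D5:**
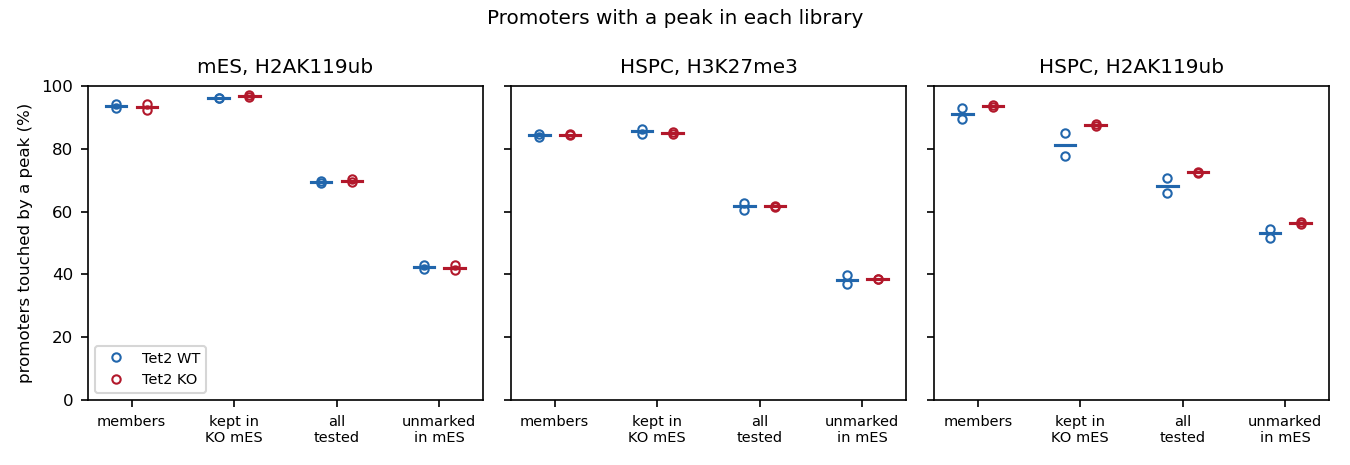
Percent of promoters touched by a peak (y axis) in each library (open circles, 2 per group; bars are means; blue WT, red KO) for members, kept promoters, all promoters and promoters without a mES H3K27me3 peak (x axis). Members lie near the kept promoters for the first 2 panels, and in the third they lie above them in every library, with 2 separated genotypes in each set.

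Taking the marks together, 826 members (71.8%) had both marks in all 8 HSPC lists, against 62.5% of kept promoters, 44.0% of all promoters and 24.0% of unmarked ones. Phlda3, Sorl1, Gnas, Zdbf2 and H6pd were the best supported of these. H2AK119ub was in all 4 HSPC lists at 997 members (86.7%) and at 74.0% of kept promoters. Only 26 members (2.26%) had neither mark in any HSPC list, and 32 had H2AK119ub in every list with no H3K27me3. The unmarked members were led by Ido2, an indoleamine dioxygenase, the receptor gene Olfr649, Gm20547, 1700012B07Rik and 5330417H12Rik. H3K27me3 in HSPCs was also called at genes of general cell functions, whose expression was not measured here. It was in all 4 HSPC lists at 13 of the 14 DNA repair members, all 11 respiratory chain members, all 6 proteasome members and all 6 mitochondrial ribosomal members, against 75.6% of all members. Over the whole lists it was at 54 of 80, 60 of 97, 25 of 48 and 44 of 70 promoters, respectively. The share over all promoters was 51.5%. It was also at 9 of all 15 widely expressed genes and 49 of all 77 cytosolic ribosomal protein genes, of which 10 were WT-marked in mES cells. At Psma4, for instance, H3K27me3 covered 501 bp in each WT mES list and 0 in KO, and 886 and 767 bp in WT and 988 and 1182 bp in KO HSPCs. Eif4a1 likewise had 1401 and 934 bp in WT and 1417 and 1209 bp in KO HSPCs. Libraries of an unspecific antibody were not analysed here, so the part of open chromatin in such calls was not tested. The same holds for the H2AK119ub calls and for both marks in mES cells.

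Members had a higher CpG content than kept promoters. The ratio of observed to expected CpG in the 2001-bp window had a median of 0.608 in members, 0.519 in kept promoters, 0.487 in all and 0.340 in promoters without a mES H3K27me3 peak. Members with a ratio of at least 0.6 numbered 594 (51.7%), against 36.1% of kept promoters. Marks in HSPCs varied with this ratio within the members. Both marks were in all 8 HSPC lists at 86.9% of members with a ratio of at least 0.6, at 70.8% of the 394 between 0.3 and 0.6, and at 19.1% of the 162 below 0.3, and 23 of the 26 members with no HSPC mark were in that last class. Over all promoters the matching values were 69.1%, 53.8% and 9.70%. Narrow members, with support of at most 501 bp, had both HSPC marks in 74.7% of cases, against 46.6% of the 451 kept promoters of the same support, whose median CpG ratio was 0.399 against 0.617 for these members.

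Members more often had another protein-coding start within 1 kb, 250 of them (21.7%) against 8.02% of kept promoters and 12.9% of all. Short motifs were counted on either strand in the stretch from 250 bases before to 50 bases after the start. The ETS core CCGGAA was present in 26.7% of members, 12.2% of kept promoters and 17.9% of all promoters. The NRF1 half-site GCATGCGC was in 6.52%, 2.57% and 3.45%, the YY1 core AAGATGGC in 5.30%, 1.17% and 2.93%, and the SP1 box GGGCGG in 63.5%, 52.6% and 43.7%. TATAAA was in 6.52% of members, 9.36% of kept promoters and 12.7% of all, and CCAAT in 44.0%, 35.6% and 38.6%. These matches describe the letters and not binding. Among the stretches printed above, those of Acsf2, Phlda3, Sorl1 and Gnas hold the SP1 box on either strand and that of H6pd does not.

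Members were spread over all 19 autosomes. Their share of WT-marked promoters was lowest on chromosome 18, 22 of 262 (8.40%), and highest on chromosome 8, 101 of 612 (16.5%). Chromosome 7 held the most, 118 of 800.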

How the data were processed

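Peak lists of 16 mouse CUT&Tag libraries were used as deposited by the authors, 1 list per library. They give the start and end position of each called peak in mm10, with no score, count or p-value. Per the labels and the methods, reads were trimmed with Trimmomatic 0.39, aligned with Bowtie2 2.4.1 to mm10 with Drosophila spike-in DNA and deduplicated with Picard. MACS2 broad calling and HOMER 4.9 are both named, and which of them wrote the lists is not stated. Positions carry no spike-in scaling, and a change of height inside a called peak cannot be seen.

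Starts came from GENCODE release M21, sequence from GRCm38 (RefSeq). Covered bases per 2001-bp window were computed with pandas 2.3.3 and numpy 2.4.6 (Python 3.11.15), tested on simulated peaks. Percentages per library were compared by two-sided exact permutation tests, with Benjamini-Hochberg adjustment over 7 tests. Named genes were the 10 members of highest support, up to 4 per gene list, up to 5 per call or HSPC state, and those at the edges of the rule. CpG classes, the recurrence of narrow peaks and other promoters named within the lists were added after their values were seen. The members and the lists were chosen with earlier results of these data known. The replicate numbers were not found to pair libraries: deviations from group means of same-numbered libraries correlated at -0.14 to 0.03 over promoters. Lists of 4 human libraries were not used. A sequence and a gene that met these rules are not reported here.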

Additional observations from a re-analysis of the deposited data

How the results depend on the processing

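Of 116 alternative values, 106 kept their direction or, for the count, stayed within 1.5 times. Another 7 changed direction and 3 counts moved by over 1.5 times. A difference of 0 was taken as keeping its direction. The 106 include the replicate block and the crossed replicate block, which repeat the main value by construction. The count of 1150 promoters was 430 with peaks of at least 1 kb only. Leaving out each mES H3K27me3 library in turn gave 1368 to 1988; leaving out KO replicate 1 gave 1988, and WT replicate 1 gave 1861. The other alternatives gave 867 to 1222, the lowest with no KO peak within 5 kb of the start. For H2AK119ub at members in mES cells the difference ranged from -1.44 to 0.57 points on leaving out a library, and turned to 0.57 when KO replicate 2, and to 0.22 when WT replicate 2, was left out. It was -1.08 points with a window of 2 kb and -3.26 with peaks of at least 1 kb only. Relative to kept promoters the latter setting gave -4.36 points in mES cells. For H3K27me3 at members in HSPCs it was -2.63 with lists of equal length, -0.47 with peaks of at least 1 kb, -0.26 with a window of 2 kb, and -0.17 to 0.70 on leaving out a library, with -0.17 without WT replicate 1. Relative to kept promoters, lists of equal length gave -0.35. Lists were cut by file order with peaks outside the autosomes counted, so this setting was not an autosomal one. The HSPC KO H3K27me3 lists, 100838 and 98313 peaks, were cut to 85121. Their autosomal counts before the cut, 82918 and 80835, already lay below the 84467 and 85015 of WT. H2AK119ub at members in HSPCs stayed positive, from 0.61 to 9.77 points. The cause of these changes was not tested. The p-values had no room to pass 0.05.

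With the replicate block (sign flips within same-numbered pairs) the p-values were 1, 1 and 0.5 for the 3 member comparisons, 1, 0.5 and 0.5 relative to kept promoters and 0.375 for the difference between cell types, and no call changed. The mES H3K27me3 deviations correlated at -0.14, so a crossed replicate block was added after the data were seen; the rule uses no pairing, and the count was 1150. Depth is unknown, so a missing peak is not shown to be an absent mark.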

Other observations

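Pluripotency and germline genes gave a few more members. Of 6 WT-marked pluripotency promoters, 2 were members, Tbx3 and Fgf4, and 1 was kept. Of 26 WT-marked germline promoters 3 were members: Stk31, Hormad2 and Rec8. Rec8, the meiotic cohesin subunit, had H3K27me3 in HSPCs over 1600 and 1534 bp in WT and 0 and 290 bp in KO, while its H2AK119ub covered 1635 and 1379 bp in WT and 1550 and 1697 bp in KO. Adgre5, the leukocyte receptor CD97, had 2001 bp of H3K27me3 in both WT HSPC libraries and 812 and 624 bp in KO, with H2AK119ub over the whole window in every list of both cell types.

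Kctd15 and Slc2a9 were members whose H2AK119ub in mES cells was also shorter in both KO libraries without being lost: 1067 and 1195 bp in WT against 405 and 207 bp in KO for Kctd15, and 2001 bp in both WT libraries against 627 and 992 bp for Slc2a9, a urate transporter. Blm showed the reverse order of H3K27me3 in HSPCs, with 0 bp in both WT libraries and 1050 and 629 bp in KO. These genes were picked out after their values were seen, and no test was made of them.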
